A study of Mus musculus with 127 samples.

Results

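Flvcr-deleted class C cells were compared with EPO-treated class C cells, at the level of all genes measured in single erythroblasts of mouse marrow. The cells were taken by their class label, with 9 Flvcr-deleted cells whose label began with DC and 9 EPO-treated cells whose label began with TC, so 18 cells of a series of 48 Flvcr-deleted, 31 EPO-treated and 48 wild-type ones. Flvcr-deleted cells carried a deletion of Flvcr, a plasma membrane exporter of heme. EPO-treated cells came from wild-type mice that had received erythropoietin (EPO), a kidney hormone that erythroid progenitors depend on. All mice were C57BL/6J, and 19 wild-type class C cells from untreated mice are quoted beside the other groups where they help to place them. The age of the mice, the dose and timing of EPO and the means of the deletion are not stated in the sources used here. Each cell was caught on a microfluidic chip and imaged for Ter119, an antigen that erythroblasts gain at their surface as they mature, and its cDNA was amplified and sequenced. No label named the animal of a cell, so the cells of a group stand for 1 sample and no p-value is given. Every SD below is the spread among the cells listed.

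Heme is made from glycine and succinyl-CoA by a chain of enzymes that starts and ends in the mitochondrion, and erythroblasts need it to build hemoglobin. Free heme is toxic, and Flvcr lets early erythroblasts export a surplus. GATA1 is the transcription factor that switches on erythroid genes, heme synthesis genes among them. EPO acts through its receptor and STAT5 to keep erythroblasts alive and dividing, and anaemia raises EPO. The comparison sets cells that lack the exporter against cells exposed to EPO, at the same class letter.

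The regions upstream of 4 genes are shown because the heme synthesis and EPO-response genes below include those that carry such motifs and those that do not. Each is the RefSeq promoter window of build GRCm38.p6, which runs from 250 bases before the gene start to 50 bases after it and reads 5′ to 3′ on the strand of the gene. Capitals mark the GATA motif (GATA with A or T before it and A or G after it) or the STAT motif (TTCNNNGAA), searched on both strands, and no GATA match overlaps a STAT match in these windows. Windows are from chrX:150547167-150547466 on the plus strand for Alas2, chr16:58669958-58670257 on the plus strand for Cpox, chr1:171281137-171281436 on the minus strand for Ppox and chr9:107296409-107296708 on the plus strand for Cish.
Alas2: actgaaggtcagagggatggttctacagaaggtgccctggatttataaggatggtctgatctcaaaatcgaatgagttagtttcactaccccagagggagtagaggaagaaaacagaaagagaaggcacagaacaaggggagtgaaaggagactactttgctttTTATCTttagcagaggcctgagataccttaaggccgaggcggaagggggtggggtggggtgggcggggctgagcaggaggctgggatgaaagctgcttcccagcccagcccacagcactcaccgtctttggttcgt
Cpox: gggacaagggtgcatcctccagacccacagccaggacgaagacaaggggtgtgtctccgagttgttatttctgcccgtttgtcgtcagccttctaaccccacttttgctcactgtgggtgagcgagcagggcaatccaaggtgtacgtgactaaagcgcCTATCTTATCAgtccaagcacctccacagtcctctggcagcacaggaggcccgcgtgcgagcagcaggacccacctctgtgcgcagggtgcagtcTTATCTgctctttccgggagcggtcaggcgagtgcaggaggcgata
Ppox: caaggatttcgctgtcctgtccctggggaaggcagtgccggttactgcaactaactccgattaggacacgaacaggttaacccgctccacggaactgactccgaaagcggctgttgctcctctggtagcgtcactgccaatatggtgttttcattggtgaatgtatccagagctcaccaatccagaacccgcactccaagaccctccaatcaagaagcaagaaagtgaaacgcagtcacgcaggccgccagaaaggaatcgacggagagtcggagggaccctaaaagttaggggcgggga
Cish: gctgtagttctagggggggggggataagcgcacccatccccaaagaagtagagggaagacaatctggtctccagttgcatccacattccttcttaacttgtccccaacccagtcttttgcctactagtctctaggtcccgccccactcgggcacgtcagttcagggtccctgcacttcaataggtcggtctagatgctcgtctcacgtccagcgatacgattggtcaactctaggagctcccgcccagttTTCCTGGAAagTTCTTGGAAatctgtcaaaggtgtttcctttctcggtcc
The Alas2 window held 1 GATA motif, on the minus strand with its first printed base 86 bases before the start. The Cpox window held 3, all on the minus strand, with their first printed bases 91 and 86 bases before the start and at base 5 of the gene. The Ppox window held none of these letters. The Cish window held 2 STAT motifs, which begin at bases 1 and 12 of the gene, and the window of Fam132b (Erfe in RefSeq) held neither motif. Of 32851 RefSeq promoter windows of this length, 29.8% held a GATA motif and 8.30% a STAT motif, so a match is a description and not a binding site.

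Every cell had erythroid markers. Each Flvcr-deleted cell had 6 to 10 and each EPO-treated cell 6 to 11 of the 11 erythroid markers in the table at an RPKM of at least 1, the level used for detection. Of 18 granulocyte and monocyte markers, Csf3r was detected in 6 and 6 cells and Camp in 1 Flvcr-deleted cell, and markers of the other lineages were at or near 0 apart from Lepr in 7 and 6 cells. The class letter did not stand for the same Ter119 value in both groups. Normalized Ter119 was 0.574 to 0.727 in Flvcr-deleted cells and 0.00263 to 0.366 in EPO-treated cells, with no overlap, and whether the scale holds across chips was not tested. Group cannot be told apart from the prefix of the column names, which may stand for the chip. All Flvcr-deleted cells had 1 prefix, and of the EPO-treated cells 8 had another and cell 31 a further one. Normalized Ter119 of every EPO-treated cell with that further prefix, in classes A, B and C, lay below that of every EPO-treated cell with the other. A difference in Ter119 between cells and a difference in scale between prefixes therefore cannot be told apart here.

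Depth differed as well. Reads estimated from the smallest steps between values were 2.55 to 4.15 M in Flvcr-deleted cells and 3.83 to 21.1 M in 8 EPO-treated cells, and cell 9 gave no estimate. Detected genes nonetheless covered like ranges, 703 to 2256 (median 1179) in Flvcr-deleted and 792 to 2250 (median 1145) in EPO-treated cells, against 1151 to 3871 (median 2152) in wild-type cells. Globins took a median of 93.4% of summed RPKM in Flvcr-deleted cells (range 64.9% to 97.4%), while EPO-treated cells had a median of 70.5% (range 48.6% to 94.04%).

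The targeted gene could not check the labels in these cells. Flvcr1, listed as Mfsd7b (NM_001081259), had an RPKM of 0 in all 9 Flvcr-deleted, all 9 EPO-treated and all 19 wild-type class C cells, and its relative Flvcr2, listed as Mfsd7c, was detected in none of them. A count of 0 in 9 cells allows a share of up to 33.6% (exact Clopper-Pearson 95% interval, which covers counting error only).

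Of the 1823 genes with a mean log2(RPKM + 1) of at least 1 over the 18 cells (kept genes), 425 (23.3%) were higher by at least 1 in Flvcr-deleted cells and 394 (21.6%) were lower by at least 1. Differences are Flvcr-deleted minus EPO-treated means on this log2 scale, which understates the change of low genes. The median kept gene differed by -0.07. In 1 kept gene (0.0549%) every Flvcr-deleted cell lay above every EPO-treated cell, and in none (0%) did every one lie below. The 1 gene, 4933409K07Rik, was at 0 in all 31 EPO-treated cells of the series, as was BC002163. The EPO-treated columns differ in number format from the others, so treatment and processing cannot be told apart, for these genes or for any other. With every cell scaled to 1 sum of RPKM the median gene shifted to -0.43 and the split to 317 higher and 582 lower, so 35.3% of the genes past the threshold were higher, against 51.9% without the scaling.

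**Figure D1:**
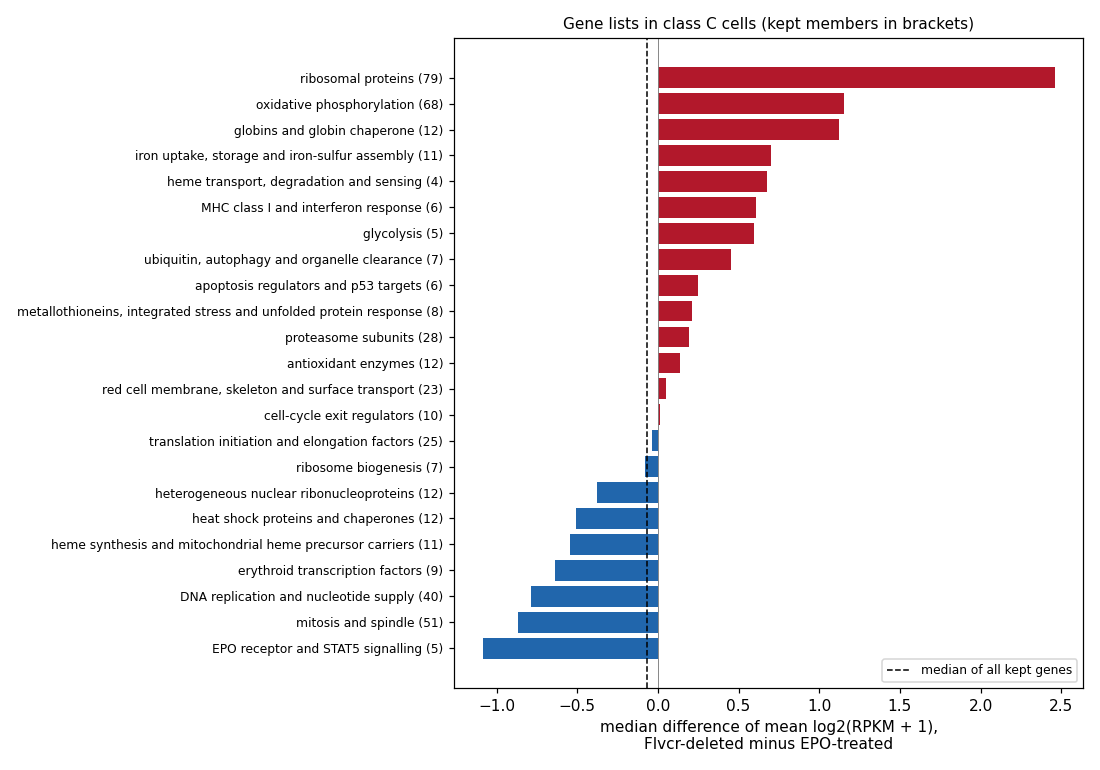
Median difference of each gene list (x axis, mean log2(RPKM + 1) of Flvcr-deleted minus EPO-treated class C cells; 1 bar a list, kept members in brackets), with the median of all kept genes as a dashed line at -0.07. Ribosomal proteins stood at 2.46 and the EPO receptor and STAT5 list at -1.09.

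2 late enzymes of heme synthesis had much lower levels in Flvcr-deleted than in EPO-treated cells. Cpox (NM_007757) encodes coproporphyrinogen oxidase and Ppox (NM_008911) protoporphyrinogen oxidase, which act one after the other just before iron is inserted. The enzymes on either side did not share this. Urod, which acts just before Cpox, differed by -0.51, and Fech, which inserts the iron, by 0.62, with detection in 5 cells of each group. Cpox had a lowest, median and highest RPKM of 2.07, 11.9 and 23.6 in Flvcr-deleted cells, against 3.84, 95.5 and 1239 in EPO-treated cells. It was detected in every cell of both groups, and 8 of 9 EPO-treated cells lay above all Flvcr-deleted cells, the exception being cell 9. Its mean log2 level was 3.55 ± 0.96 in Flvcr-deleted and 7.06 ± 2.49 in EPO-treated cells (SD, n = 9 each), a difference of -3.52, with wild-type cells between them at 5.29 ± 1.34 (n = 19).

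Ppox had an RPKM of 0 to 9.30 (median 0.21) in Flvcr-deleted cells, against 0 to 459 (median 67.7) in EPO-treated cells. Detection reached 2 of 9 Flvcr-deleted cells (22.2%, with an exact 95% interval of 2.81% to 60.01%) against 7 of 9 EPO-treated cells (77.8%, 39.99% to 97.2%), and those 7 cells all lay above every Flvcr-deleted cell. The difference was -4.28, from means of 0.78 ± 1.15 in Flvcr-deleted and 5.06 ± 2.86 in EPO-treated cells; wild-type cells, with Ppox in 19 of 19, had 7.71 ± 1.13. Both genes were also lower in Flvcr-deleted cells of class D, by -1.22 for Cpox and -5.47 for Ppox, while in class B Cpox differed by -1.44 and Ppox by -0.11. Part of the Cpox difference rested on 4 EPO-treated cells: without cells 22, 24, 25 and 26, chosen after seeing the data for reasons given with transcript length below, it was -1.78 for Cpox and -3.01 for Ppox.

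The start of the pathway also differed less than Cpox and Ppox did. Alas2 (NM_001102446), the ALA synthase of red cells, had an RPKM of 4.23 to 684 (median 388) in Flvcr-deleted cells and 72.6 to 2171 (median 478) in EPO-treated cells. The groups overlapped widely, and the difference of means of -1.48 (7.63 ± 2.36 in Flvcr-deleted, 9.11 ± 1.53 in EPO-treated cells) shrank to -0.30 with medians in place of means, since Flvcr-deleted cells 41 and 45 were far below the other 7. Alad (NM_001276446), the enzyme of the second step, was seen in 7 of 9 Flvcr-deleted and 9 of 9 EPO-treated cells and differed by -1.65. Uros (NM_001302087), uroporphyrinogen III synthase, was the 1 member higher by at least 1, at 1.94, and was seen in 7 of 9 Flvcr-deleted and 4 of 9 EPO-treated cells. Of the 11 kept members of the list of heme synthesis and carrier genes, 1 was higher and 5 were lower (9.09% and 45.5%), with Tmem14c, a carrier named here after its values were seen, as the fifth at -1.44. The list median of -0.54 was -1.52 with every cell scaled to 1 sum, -1.78 without the 4 EPO-treated cells and 0.03 in cells with 1000 to 2000 detected genes.

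Genes that move heme out of the cell or break it down did not share 1 direction. Hmox1, the heme oxygenase that opens the heme ring, was detected in no cell of either group. Blvrb (NM_001290525), biliverdin reductase B, had an RPKM of 639 to 2045 (median 827) in Flvcr-deleted cells and 0 to 1694 (median 289) in EPO-treated cells, a difference of 2.14. The groups overlapped: 6 EPO-treated cells lay below every Flvcr-deleted cell and the other 3 within their range. Abcg2 (NM_011920), a transporter that can export porphyrins and heme, was seen in 9 of 9 Flvcr-deleted and 7 of 9 EPO-treated cells and differed by 1.41, whereas Blvra (NM_026678), the other biliverdin reductase, was in 2 and 3 cells and differed by -1.41.

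Among iron genes 5 of 11 were higher and 2 lower in Flvcr-deleted cells (45.5% and 18.2%, against 23.3% and 21.6% of all kept genes), with a list median of 0.70. Without EPO-treated cells 22, 24, 25 and 26, 3 were higher and 2 lower and the median was 0.05. Ftl1 (NM_010240), the light chain of the iron store ferritin, had an RPKM of 432 to 3410 (median 1577) in Flvcr-deleted cells and 0 to 4623 (median 621) in EPO-treated cells, a difference of 1.91 that was -0.09 without EPO-treated cells 22, 24, 25 and 26. Glrx5 (NM_028419), a glutaredoxin of iron-sulfur cluster assembly, differed by 1.72, but by -0.50 in cells with 1000 to 2000 detected genes. Isca2 (NM_028863), another assembly protein, went the other way at -2.84, with detection in 1 of 9 Flvcr-deleted and 5 of 9 EPO-treated cells, and the iron importer gene Slc11a2 (NM_008732) differed by -1.83, in 1 and 4 cells. Tfrc (NM_011638), the transferrin receptor, was detected in 8 of 9 cells of each group, with median RPKM of 59.4 in Flvcr-deleted and 57.8 in EPO-treated cells, and differed by -0.63.

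Adult globins were higher in Flvcr-deleted cells in RPKM. Hbb-b1 (NM_001278161), an adult beta-globin gene, had an RPKM of 85150 to 296300 (median 213800) in Flvcr-deleted cells and 24650 to 245700 (median 58280) in EPO-treated cells. The groups overlapped, and the difference was 1.15, from means of 17.47 ± 0.59 and 16.32 ± 1.38. Hba-a1 (NM_008218), an adult alpha-globin gene, differed by 1.35. Of the 12 kept globins 8 were higher and 1 lower (66.7% and 8.33%), the list median was 1.12, and this became 0.17 with each cell scaled to 1 sum, 0.59 without the 4 EPO-treated cells and -0.23 in cells with 1000 to 2000 detected genes. Globins make up most of the summed RPKM, so scaling to that sum lowers them by construction; relative to the median kept gene their list stood at 0.60 with the scaling and 1.19 without it. Copies of the adult globins share reads, so their values are not separate measurements. The lower member was Hbb-y (NM_008221), an embryonic beta-like globin, at -1.72, which was seen in 8 of 9 Flvcr-deleted cells with a median RPKM of 6.48 and in 5 of 9 EPO-treated cells with a median of 172.

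The erythroid transcription factors Gata1 and Klf1 were seen in a smaller share of cells of both groups than of wild type, whose cells also had more detected genes. The median difference from wild type was -2.14 for the list and -0.86 for all kept genes in Flvcr-deleted cells, and -1.68 and -0.90 in EPO-treated cells. Gata1 (NM_008089) was seen in 4 of 9 Flvcr-deleted cells (44.4%, with an exact 95% interval of 13.7% to 78.8%) and in 5 of 9 EPO-treated cells (55.6%, 21.2% to 86.3%), against 18 of 19 wild-type cells (94.7%, 74.0% to 99.9%). The difference was -1.06 on means of 1.64 ± 2.19 in Flvcr-deleted and 2.70 ± 3.06 in EPO-treated cells, and it was 0.28 in cells with 1000 to 2000 detected genes. Klf1 (NM_010635), the factor that drives beta-globin, differed by -1.08 and was detected in 5 and 7 cells, against 19 of 19 wild-type cells. Of 9 kept factors 0 were higher and 2 lower, these 2, at shares of 0% and 22.2% that lie below and near the background. The largest value on the other side was Klf3 (NM_008453) at 0.90. Both mutant and EPO-treated values are set against the same wild-type cells here, so the 2 gaps to wild type are not independent.

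Genes of the EPO response were detected in both groups, and Ccnd3 and Fam132b differed most. Fam132b (NM_173395) encodes erythroferrone, the hormone by which erythroblasts lower hepcidin in the liver. It had an RPKM of 0 to 84.0 (median 0.10) in Flvcr-deleted cells and 0 to 226 (median 25.2) in EPO-treated cells, and 1 of 19 wild-type cells had it. Detection reached 4 of 9 Flvcr-deleted cells (44.4%, with an exact 95% interval of 13.7% to 78.8%) against 7 of 9 EPO-treated cells (77.8%, 39.99% to 97.2%). These intervals cover counting error among the cells of 1 sample a group and do not compare the groups. The difference was -2.70, but -1.04 without EPO-treated cells 22, 24, 25 and 26 and -0.54 in cells with 1000 to 2000 detected genes.

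Cish (NM_009895), the feedback inhibitor whose start region is shown above, was seen in 5 of 9 Flvcr-deleted and 5 of 9 EPO-treated cells, against 4 of 19 wild-type cells, and differed by -0.45. Its highest RPKM was 235 in Flvcr-deleted and 689 in EPO-treated cells. Pim1 (NM_008842), a survival kinase and STAT5 target, was in 4 and 6 cells and differed by -1.09, with a value of 0.15 without the 4 EPO-treated cells. Ccnd3 (NM_007632), the cyclin that sets the number of divisions an erythroblast completes, was seen in 3 of 9 Flvcr-deleted and 7 of 9 EPO-treated cells. It differed by -3.00, and by -3.09 in class B and 1.36 in class D. In the list for the EPO receptor and STAT5, 5 of 18 genes were kept, and Epor, Stat5a, Stat5b and Jak2 were not among them. Of the 5 kept genes 0 were higher and 3 lower (0% and 60%, against 23.3% and 21.6% of all kept genes). Their median was -1.09 and ran from -3.78 to 0.00 over the alternative settings. Between Flvcr-deleted and EPO-treated cells it was 0 in class B and -0.94 in class D. Mcl1 (NM_008562), a survival gene of another list, was in 1 and 4 cells and differed by -1.97.

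**Figure D2:**
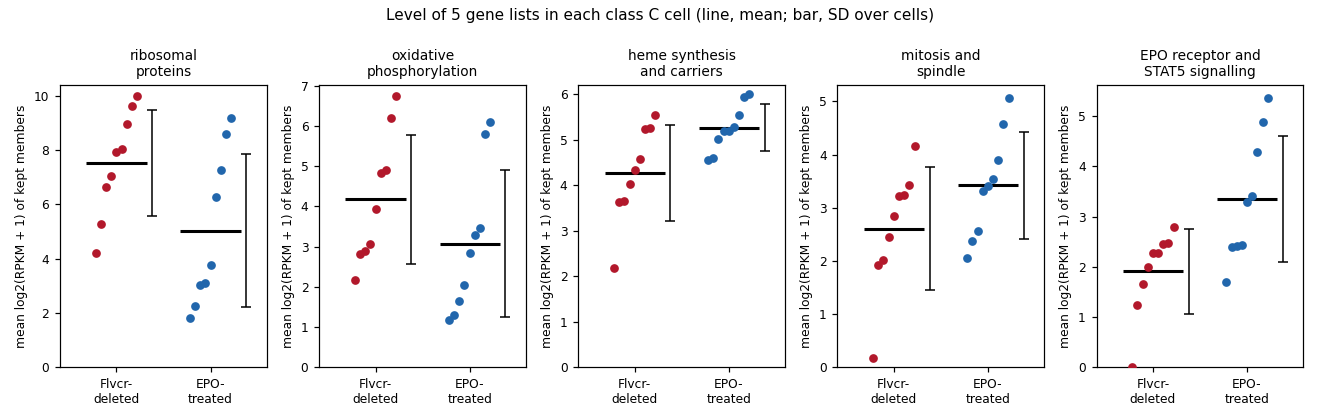
Mean log2(RPKM + 1) of the kept members of 5 lists in each class C cell (y axis; 1 point a cell, Flvcr-deleted cells left, EPO-treated cells right; line, mean; bar, SD over 9 cells). Ribosomal protein levels ran from 4.199 to 9.99 in Flvcr-deleted and from 1.81 to 9.19 in EPO-treated cells, and both groups overlapped in all 5 lists.

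Genes of mitosis leaned lower in Flvcr-deleted cells. In the mitosis and spindle list 22 of 51 kept genes were lower and 5 higher (43.1% and 9.80%, against 21.6% and 23.3% of all kept genes), with a median of -0.87. Mki67 (NM_001081117), the proliferation antigen Ki-67, had an RPKM of 0 to 118 (median 31.4) in Flvcr-deleted cells and 9.62 to 731 (median 176) in EPO-treated cells, a difference of -2.84. The groups overlapped, with 5 EPO-treated cells above all Flvcr-deleted cells, and the difference was -1.46 without EPO-treated cells 22, 24, 25 and 26. Cdk1 (NM_007659), the kinase that starts mitosis, was seen in 3 of 9 Flvcr-deleted and 6 of 9 EPO-treated cells and differed by -3.50, and Kif23 (NM_024245), a motor of cytokinesis, was in 1 and 6 cells and differed by -2.67. Cdca3 (NM_013538), a trigger of mitotic entry, was in 5 and 9 cells and differed by -2.65.

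In the list of DNA replication and nucleotide supply 15 of 40 kept genes were lower and 2 higher (37.5% and 5.00%), with a median of -0.79. The direction was not the same in every class. Between Flvcr-deleted and EPO-treated cells the list median was -2.54 in class B and 1.425 in class D (5 and 4 cells). All kept genes had medians of -0.57 and 0.38 there. Rrm2 (NM_009104), the ribonucleotide reductase subunit that limits deoxynucleotide supply, had an RPKM of 0 to 1165 (median 93.7) in Flvcr-deleted cells and 171 to 2402 (median 1025) in EPO-treated cells. The groups overlapped, and the difference was -2.96. Pcna (NM_011045), the sliding clamp of the replication fork, was in 4 and 7 cells and differed by -2.86, and Prim1 (NM_008921), a primase subunit, was in 3 and 5 cells and differed by -2.55. Chaf1a (NM_013733), a subunit of the histone chaperone CAF-1, went the other way in class C. Its RPKM reached 182 in Flvcr-deleted cells, with detection in 5 of 9 (55.6%, exact 95% interval 21.2% to 86.3%), and 0.16 in EPO-treated cells, with detection in 0 of 9 (up to 33.6%). Chaf1a was kept through the Flvcr-deleted cells alone. It differed by -2.825 in class B and -0.26 in class D, and 9 EPO-treated cells of the whole series had it. Asf1b (NM_024184), which hands histones to CAF-1, differed by -3.77.

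Levels of replication genes varied widely inside each group, along with the number of detected genes. Flvcr-deleted cells 22, 35, 43 and 45 had mean list levels of 3.79, 2.61, 3.95 and 5.04, and the other 5 lay at 0.19 to 0.94; the first 4 had 1260 to 2256 detected genes and the other 5 had 703 to 1179. EPO-treated cells 24, 25 and 26 lay at 0.70 to 1.22, cell 9 at 2.00 and the other 5 at 3.44 to 5.74, and cells 24, 25 and 26 had the fewest detected genes of their group, 792 to 846. The part of detection in these levels was not tested. With EPO-treated cells 22, 24, 25 and 26 left out the list median was -2.05, with 29 of 40 members lower, while 34.7% of all kept genes were then lower. With medians over cells in place of means it was 0.00. The regulators E2f2 (NM_001305399), a transcription factor of erythroblast cycling, and Cdkn1b (NM_009875), the inhibitor p27 of cyclin-dependent kinases, differed by -3.49 and 2.54. E2f2 was seen in 6 of 9 Flvcr-deleted and 9 of 9 EPO-treated cells, and Cdkn1b in 9 of 9 Flvcr-deleted and 4 of 9 EPO-treated cells. In classes B and D, E2f2 differed by -0.61 and 3.96, and Cdkn1b by 0.51 and 0.42. Btg1 (NM_007569), an antiproliferative gene, differed by 1.58 in 5 and 3 cells, but by -0.52 in cells with 1000 to 2000 detected genes. The list of cell-cycle exit regulators as a whole had 2 higher and 3 lower of 10 and a median of 0.02.

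**Figure D3:**
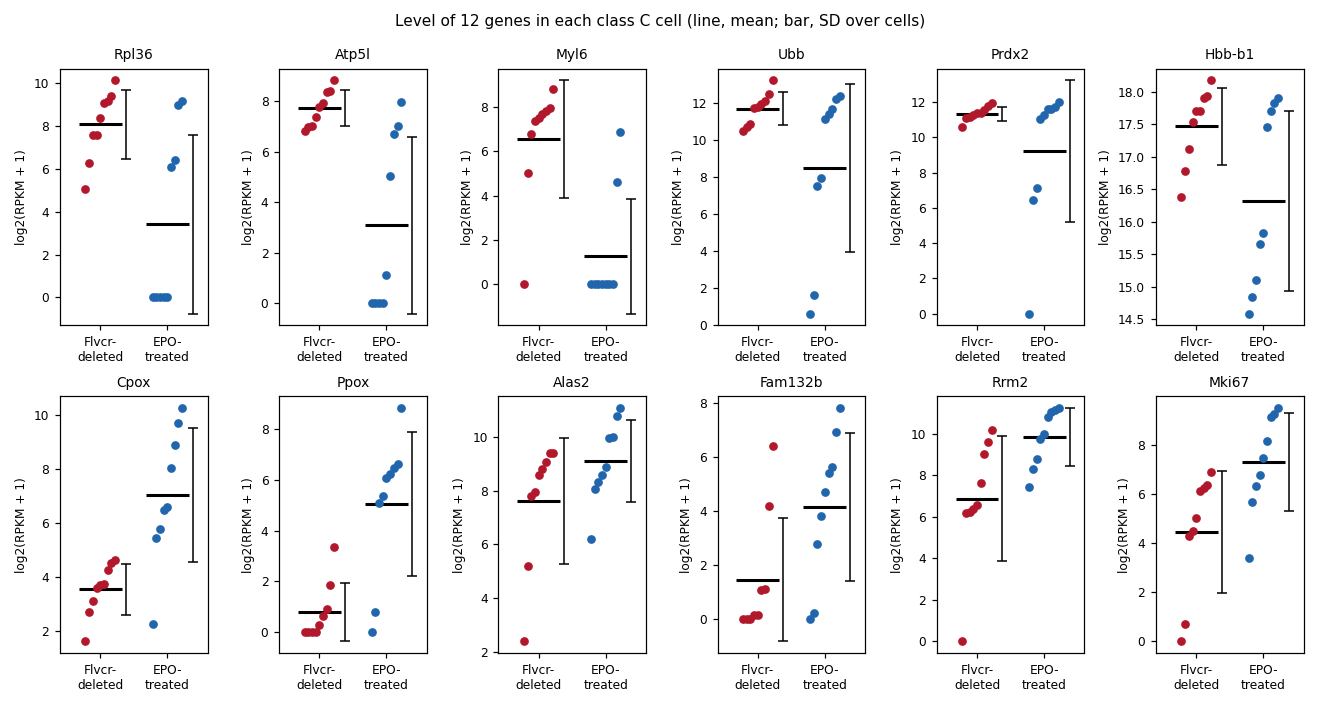
Level of 12 genes in each class C cell (y axis, log2(RPKM + 1); 1 point a cell, Flvcr-deleted cells left, EPO-treated cells right; line, mean; bar, SD over 9 cells; the y axis of each panel has its own range). Cpox stayed at or below 4.62 in Flvcr-deleted cells and reached 10.28 in EPO-treated cells, and Rpl36 was above 5 in every Flvcr-deleted cell and 0 in 5 EPO-treated cells.

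Ribosomal protein genes made up the largest block of genes higher in Flvcr-deleted cells. Of 79 kept members 71 were higher and 0 lower (89.9%, against 23.3% of all kept genes), with a median of 2.46. Rpl36 (NM_018730), a protein of the large subunit, had an RPKM of 32.8 to 1129 (median 336) in Flvcr-deleted cells and 0 to 582 (median 0) in EPO-treated cells. All 9 Flvcr-deleted cells had it (exact 95% interval 66.4% to 100%), as did 4 of 9 EPO-treated cells (13.7% to 78.8%), and the difference was 4.67. Rpl23a (NM_207523) and Rpl32 (NM_172086) of the large subunit differed by 4.61 and 4.59, and Rps14 (NM_020600) and Rps23 (NM_024175) of the small subunit by 4.22 and 4.21. The members furthest from this pattern were Rpl3, Rpl7a and Rps2, at 0.05, 0.05 and -0.16, which are named after their values were seen. Many ribosomal protein genes have processed pseudogenes of near-identical sequence, which could share reads with them.

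Only some EPO-treated cells lay below the Flvcr-deleted range. Mean list levels of EPO-treated cells 3, 16, 22 and 31 were 7.27, 8.60, 6.27 and 9.19, within the Flvcr-deleted range, and those of cells 2, 9, 24, 25 and 26 were 1.81 to 3.77, below every Flvcr-deleted cell. The median list member had a level of 7.60 in Flvcr-deleted, 5.11 in EPO-treated and 6.32 in wild-type cells. Between Flvcr-deleted and EPO-treated cells of class B the median difference was 0.34 and in class D it was 4.23. Factors of ribosome biogenesis, with 0 higher and 1 lower of 7, and of translation initiation and elongation, with 5 and 5 of 25, had medians of -0.08 and -0.04.

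Oxidative phosphorylation genes were the second such block, with 40 of 68 kept members higher and 5 lower (58.8% and 7.35%) and a median of 1.15. In class B the list median was -0.33 and in class D 2.46, against -0.57 and 0.38 for all kept genes. Atp5l (NM_013795), a small subunit of ATP synthase, had an RPKM of 113 to 451 (median 215) in Flvcr-deleted cells and 0 to 246 (median 1.19) in EPO-treated cells. The groups overlapped, and the difference was 4.63. Uqcrh (NM_025641), a hinge protein of complex III, was seen in 9 of 9 Flvcr-deleted and 3 of 9 EPO-treated cells and differed by 4.40, and Atp5k (NM_007507), another small ATP synthase subunit, was in 8 and 3 cells and differed by 4.40.

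Both blocks hold short transcripts, and the difference between the groups followed transcript length among all genes. Of the 1800 kept genes with a known length, the median difference was 1.45 under 600 bases (103 genes), 0.92 from 600 to below 900 (180 genes), 0.37 from 900 to below 1300 (243 genes) and -0.31 from 1300 to below 2000 (337 genes), and it lay between -0.41 and -0.27 in the 3 bins above that. Genes outside both lists showed the same fall, with medians of 1.13, 0.70, 0.25 and -0.31 in the first 4 bins. Ribosomal proteins lay above those genes in each of these bins, with 2.79, 2.48, 2.23 and 1.85 (23, 24, 20 and 8 genes). Oxidative phosphorylation genes had 1.496, 0.48, 1.49 and -0.73 (23, 20, 11 and 9 genes), so they did not lie above the other genes in every bin.

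The level of short transcripts also set cells apart. Mean log2 below 1000 bases minus mean log2 over 3000 bases, without the 2 lists for the short genes, was 0.98 to 3.01 (median 1.21) in Flvcr-deleted cells, -0.64 to 2.36 (median 0.54) in EPO-treated cells and 0.03 to 2.07 (median 0.60) in wild-type cells. EPO-treated cells 22, 24, 25 and 26 were lowest, at -0.03, 0.29, -0.64 and -0.60, and their estimated reads of 3.83 to 6.71 M were fewer than in the 4 other EPO-treated cells with an estimate (14.1 to 21.1 M). These cells were picked for low short-transcript levels, so leaving them out lowers the differences of short genes in part by construction. It is not an independent check. Without them the ribosomal protein median was 1.22, with 45 of 79 members higher and 3 lower. The oxidative phosphorylation median was 0.10, with 13 of 68 higher and 20 lower. Of all kept genes 15.0% were then higher and 34.7% lower. Among kept genes of 1300 bases or more, 10 of 12 ribosomal protein genes were higher with a median of 1.85, and 4 of 14 oxidative phosphorylation genes were higher and 4 lower with a median of -0.60, while 13.7% of all kept genes of that length were higher and 26.9% lower. The part of transcript length, depth or RNA recovery in these differences was not tested.

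**Figure D4:**
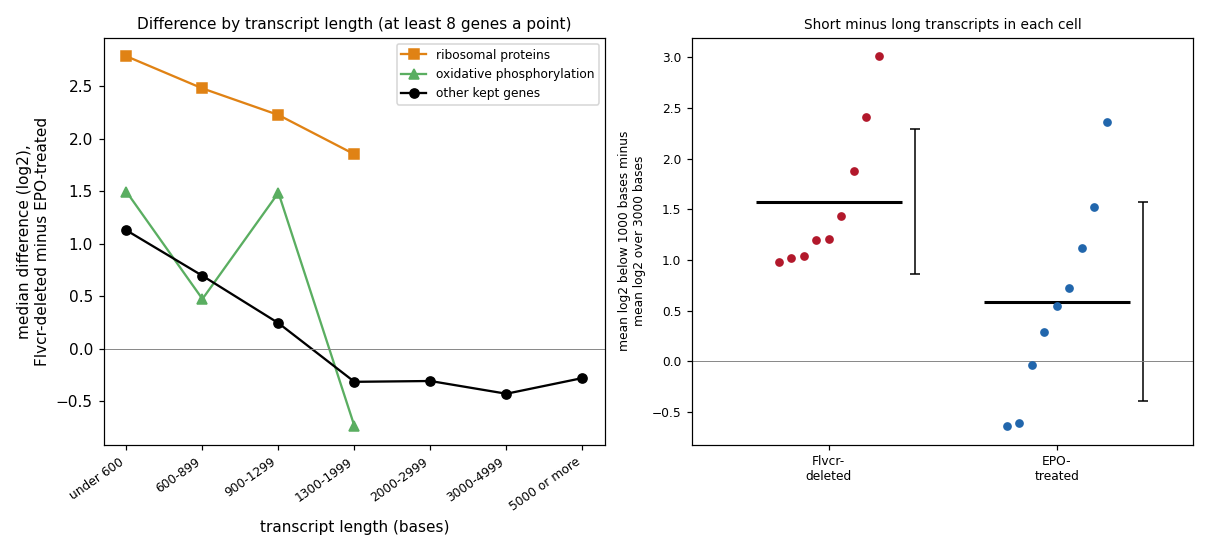
Left, median difference of Flvcr-deleted minus EPO-treated cells (y axis, log2) by transcript length (x axis, bases) for ribosomal proteins, oxidative phosphorylation genes and all other kept genes; right, mean log2 level of transcripts below 1000 bases minus that over 3000 bases in each cell (Flvcr-deleted left, EPO-treated right; line, mean; bar, SD over 9 cells). The other genes fell from a median difference of 1.13 under 600 bases to -0.31 at 1300 to below 2000 bases, and the lowest 4 cells on the right, at -0.64 to 0.29, were all EPO-treated.

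Genes of protein and organelle clearance included some of the higher genes. Ubb (NM_011664), a polyubiquitin gene, had an RPKM of 1423 to 9647 (median 3488) in Flvcr-deleted cells and 0.51 to 5249 (median 2291) in EPO-treated cells, a difference of 3.21. The medians were close, and 2 EPO-treated cells near 0 widened the gap of the means. Map1lc3b (NM_026160), an LC3 protein of the autophagosome, was seen in 9 of 9 Flvcr-deleted and 6 of 9 EPO-treated cells and differed by 3.69. Ube2l6 (NM_019949), a conjugating enzyme for ISG15 and ubiquitin, differed by 2.94 in 8 and 6 cells, but by -0.68 in cells with 1000 to 2000 detected genes. Fbxo7 (NM_153195), an F-box protein, differed by -2.11 in 2 and 4 cells. Of the 7 kept members of the list 3 were higher and 1 lower (42.9% and 14.3%), with a median of 0.45.

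Antioxidant enzymes varied in level, and Prdx2 was among the highest. Prdx2 (NM_011563), the main peroxiredoxin of red cells, had an RPKM of 1516 to 3948 (median 2647) in Flvcr-deleted cells and 0 to 4177 (median 2506) in EPO-treated cells. Its difference of 2.13 went with 3 low EPO-treated cells and was -0.20 without cells 22, 24, 25 and 26. Sod1 (NM_011434), the cytosolic superoxide dismutase, differed by 1.70, and by -1.0 without those cells. Of 12 kept antioxidant genes 4 were higher and 1 lower (33.3% and 8.33%), with a median of 0.14. Without the 4 cells 0 were higher and 7 lower (0% and 58.3%), when 15.0% of all kept genes were higher and 34.7% lower.

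Among red cell membrane genes 3 of 23 were higher and 5 lower (13.0% and 21.7%, against 23.3% and 21.6% of all kept genes), with a median of 0.05. Sptb (NM_013675), a beta-spectrin gene of the membrane skeleton, differed by -2.32 and was seen in 1 of 9 Flvcr-deleted and 6 of 9 EPO-treated cells. Rhag (NM_011269), the Rh-associated glycoprotein, was in 9 and 8 cells and differed by 1.99. Of the 12 kept heterogeneous nuclear ribonucleoprotein genes, which bind and process RNA, 2 were higher and 4 lower (16.7% and 33.3%), with a median of -0.38. Hnrnpf (NM_133834) was the lowest of them, detected in 2 of 9 Flvcr-deleted and 8 of 9 EPO-treated cells, at -3.86.

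The highest difference of all was that of Myl6 (NM_010860), a myosin light chain, at 5.26. Its RPKM was 0 to 449 (median 178) in Flvcr-deleted cells and 0 to 117 (median 0) in EPO-treated cells, with detection in 8 of 9 and 2 of 9 cells, and 19 of 19 wild-type cells had it. Ctsb (NM_007798), the lysosomal protease cathepsin B, had an RPKM of 0 to 30.7 (median 4.04) in Flvcr-deleted cells and 0.06 to 331 (median 97.5) in EPO-treated cells, a difference of -4.23. Both groups overlapped for each gene. Anp32e (NM_001253757), a chaperone of the histone variant H2A.Z, was detected in 0 of 9 Flvcr-deleted cells (up to 33.6%) and 5 of 9 EPO-treated cells (21.2% to 86.3%), and differed by -3.10. It was kept through the EPO-treated cells alone. Hsp90aa1 (NM_010480), an inducible HSP90 gene, and Eif4e (NM_007917), the cap-binding translation factor, differed by -3.16 and -3.34, in 5 against 8 and 2 against 6 cells. Hagh (NM_001159626), glyoxalase II, Nap1l1 (NM_015781), a histone chaperone, and Psmd2 (NM_134101), a proteasome subunit, differed by -3.01, -3.01 and -3.00.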

How the data were processed

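Each sample was 1 marrow cell, caught on a C1 chip and amplified with SMART-Seq, with Nextera XT libraries, per the labels' protocols. The authors deposited RPKM values, read numbers per length of transcript and depth, in 1 table of 34898 RefSeq rows; per the submitters' processing notes the aligner was TopHat2 2.0.9 and the build mm9. The counter, its strand setting and the read total behind RPKM are not stated in the sources used here. A further 4 columns match no sample and were left out. In EPO-treated columns 100% of values above 0 had at most 2 decimals, against 0% in Flvcr-deleted columns; whether the authors processed them apart was not tested.

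A gene was 1 of 24320 symbols; of several rows, that with the highest mean over the series stood for it. On the scale log2(RPKM + 1), genes whose mean reached 1 over the 18 cells were kept, and a difference of at least 1 counted as higher or lower. A gene was detected at an RPKM of 1 or more. Intervals of shares are exact (Clopper-Pearson, 95%) and reflect counting error alone. Depth was estimated from the smallest steps of length-corrected values, with GENCODE transcript lengths matched by RefSeq identifier; these are of another build than mm9, so only lengths were used. Because each group was 1 sample, the groups were compared without a test or p-value; Dixon's criterion was used only to point out single cells. Python 3.11.15, numpy 2.4.6, pandas 2.3.3 and scipy 1.17.1 were used. The difference of means was tried on resampled cell values and the depth estimate on simulated counts. The other steps had no such trial.

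The members, the gene lists and the comparisons were chosen with earlier results of these data known. The rule for named genes took the 15 largest differences of each sign over kept genes detected in at least 5 cells of the higher group, 12 fixed genes and 4 kept members a list, those furthest from 0; not all of these are named, and some are not reported here.

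The alternatives were pseudocounts of 0.1 and 10, no filter, a filter over all cells, scaling to 1 sum with and without globins, medians, summed rows, a ratio of mean RPKM, cells with 1000 to 2000 detected genes (4 Flvcr-deleted and 5 EPO-treated) and leaving out each cell. Leaving out EPO-treated cells 22, 24, 25 and 26 and keeping only transcripts of 1300 bases or more were added after the data were seen. Those EPO-treated cells were chosen by their low short-transcript levels, so leaving them out is not an independent check.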

Additional observations from a re-analysis of the deposited data

Results flagged for a closer look

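Among 192 sets of 9 or 8 cells examined, 26 had 1 cell far from the others by Dixon's criterion, 16 in Flvcr-deleted and 10 in EPO-treated cells. The sets were 67 of the genes named in the text, list levels and cell measures, each group apart. Chance flags about 1 in 20 groups, and genes at 0 in most cells are flagged easily. Values are log2(RPKM + 1) unless stated.

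In Flvcr-deleted cells, cell 43 stood high for Cdk1 at 7.62, Kif23 at 6.65, Hnrnpf at 6.87 and Eif4e at 8.15. It also had the most detected genes of its group, 2256. Cell 45 stood high for Isca2 at 8.12 and Mcl1 at 1.70, cell 35 for Slc11a2 at 4.67 and 2310036O22Rik at 5.14, cell 21 for Sptb at 1.69 and cell 37 for Hbb-y at 9.01. Cell 37 stood low, at 0, for Myl6, Tfrc and Rrm2, cell 3 at 0 for Atp5k, cell 35 at 0 for Ube2l6 and cell 33 at 3.36 for Rpl39. Hbb-y was also seen in 7 other Flvcr-deleted cells, whereas Isca2, Slc11a2, Kif23, Sptb and Mcl1 reached an RPKM of 1 in the high cell alone.

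In EPO-treated cells, cell 25 stood low, at 0, for Prdx2, Gpx4 and Hnrnpl, and cell 26 at 0 for Blvrb and Ftl1. Cell 26 also had the lowest mean level of erythroid transcription factors at 0.573, and cell 25 the highest mean level of apoptosis regulators at 3.29. Cell 24 was lowest for Ctsb at 0.0841 and cell 31 highest for Chaf1a at 0.214. Cell 31, whose column name had another prefix, had a normalized Ter119 value of 0.00263, against 0.208 in the next lowest cell.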

How the results depend on the processing

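No test compared the groups, so each result is a value that can move or change sign. Counts of genes higher and lower moved by over 1.5 times with a pseudocount of 10 (185 and 146), the lower count with no filter (612), both without EPO-treated cells 22, 24, 25 and 26 (274 and 632) and the higher count among transcripts of 1300 bases or more (175). Leaving out 1 cell at a time gave 355 to 508 higher genes, 339 to 475 lower genes and a median difference of -0.25 to 0.13. Other alternatives kept both counts within 1.5 times.

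Among list medians and the 67 named genes followed, signs changed in 12 cases where the main difference was at least 1 in size. In cells with 1000 to 2000 detected genes the globin median was -0.23, Ube2l6 -0.68, Sod1 -1.45, Glrx5 -0.50, Gata1 0.28 and Btg1 -0.52. Without the 4 EPO-treated cells Prdx2 was -0.20, Sod1 -1.0, Ftl1 -0.09 and Pim1 0.15. The ratio of mean RPKM gave -0.35 for Sod1, and transcripts of 1300 bases or more gave -0.60 for oxidative phosphorylation. The cause was not tested. Smaller list medians also changed sign, such as antioxidant enzymes (lowest -1.04), protein and organelle clearance (-0.68), proteasome (-0.53) and class I antigen genes (-0.17). No other list median or followed gene with a difference of at least 1 changed sign under these alternatives, and none did so when 1 cell was left out. Some genes named in the text were not followed, among them Herpud1, Eif4ebp1 and Tmem14c, so whether their signs change is not known. The ribosomal protein median kept above the median gene in 13 of 13 settings (1.10 to 3.27), and those of mitosis (-1.31 to -0.28) and heme synthesis (-1.78 to 0.03) lay below it in 13 of 13.

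No paired analysis was possible because cell numbers only name cells and no comparison of the groups comes from a test. Depth limits genes near 0. Separately, the number of cells limits shares: with 9 cells, detection in none allows a share of up to 33.6% by counting error alone.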

Other observations

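For all kept genes, 23.3% were higher and 21.6% lower, and the lists here are small. Of 8 kept genes of the metallothionein, integrated stress and unfolded protein lists 2 were higher and 0 lower in Flvcr-deleted cells (25.0% and 0%), Eif4ebp1 at 2.05 and Herpud1 at 1.40, both named after their values were seen. Of 6 kept class I antigen and interferon genes 2 were higher and 0 lower (33.3% and 0%), with a median of 0.61. Of 5 kept glycolysis genes 2 were higher and 1 lower (40.0% and 20.0%), with a median of 0.59.

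Among 12 heat shock and chaperone genes 3 were higher and 3 lower (25.0% each). Among 28 proteasome genes 8 were higher and 6 lower (28.6% and 21.4%, near the shares of all kept genes), with Psmb6, a catalytic subunit, at 2.84 and Psmd2, a regulatory one, at -3.00. The proteasome median was 0.19.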
